A study of Salmo trutta with 24 samples.

Results

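The livers of mature male brown trout (*Salmo trutta*) exposed to 15.3 µg/l linuron were compared with those of control fish kept in water alone, transcript by transcript and after summing the transcripts of each gene annotation. The comparison used 9 of the 24 RNA-seq libraries of the series, 3 from exposed fish (ML1, ML2 and ML3) and 6 from control fish (C1 to C6), with 1 library per fish. All fish were adult males with mature testes, and exposure took place in a flow-through system with the concentration measured in the water. Its duration is not certain, since 4 days is stated for every fish but 14 days in the treatment protocol. For the control fish, the paper that reported them also gives 4 days. The fish exposed to 1.7 µg/l and to 225.9 µg/l linuron, 3 of each, were used only to place the 15.3 µg/l group among the concentrations. The tank of a linuron-exposed fish was not given in the sources used here, so an effect of the tank and an effect of the concentration cannot be told apart, and each p-value measures the spread between these fish only. The paper on the same control fish states that the control was run in duplicate tanks. The 6 control fish were pooled here without a term for the tank. Whole liver was sampled, so fewer cells of a type and less RNA per cell cannot be told apart either.

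Linuron is a phenylurea herbicide that blocks photosynthesis in plants and is known in vertebrates as an antagonist of the androgen receptor. Fish take it up from the water, and the liver is the main site where such compounds are oxidised by cytochrome P450 enzymes and then conjugated and excreted. The best known transcriptional sensor of planar pollutants in fish liver is the aryl hydrocarbon receptor, with *cyp1a* as its classical target. The liver also makes cholesterol, plasma proteins and bile acids, and it carries receptors for androgens and oestrogens.

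The libraries held between 3886880 (C3) and 8620620 (C2) counted reads in control fish, and 6134415, 7472114 and 5748309 in ML1, ML2 and ML3. The table listed 56199 assembled transcripts, of which 32563 carried an Ensembl annotation, and these were summed into 10841 annotations. Levels are given as CPM (counts scaled to the TMM-adjusted library size), a level per annotation with no correction for transcript length. Fold changes are given on the log2 scale as exposed over control. Their standard error (SE) was calculated back from the fold change and the F statistic of the quasi-likelihood test. Of 21 hepatocyte markers, such as fibrinogen, transferrin and apolipoproteins, the summed level was 153667 to 207182 CPM in control fish and 172944, 189859 and 205238 CPM in ML1, ML2 and ML3, so the defining transcripts of liver were present in every library.

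No transcript and no annotation passed the test at 15.3 µg/l. In edgeR's quasi-likelihood test 0 of 56199 transcripts (0.0%) and 0 of 10841 annotations (0.0%) had a Benjamini-Hochberg adjusted p under 0.05, and the lowest adjusted p was 0.842 for transcripts and 0.780 for annotations. At an unadjusted p under 0.05 there were 2698 transcripts (4.8%), 1277 higher (2.27%) and 1421 lower (2.53%) in exposed fish, and 658 annotations (6.07%), of which 346 annotations (3.19%) were higher and 312 (2.88%) lower. All exposed fish lay above every control fish for 151 annotations (1.39%) and below every control fish for another 151 (1.39%), and the same held for 608 (1.08%) and 768 (1.37%) transcripts. The median log2 fold change of all annotations was -0.01, and 48.7% of them were positive. The biological coefficient of variation between fish was 0.531 for transcripts and 0.44 for annotations.

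Other count tests of the same fish made a few calls. edgeR's exact test called 16 transcripts (0.0285%), 13 higher (0.0231%) and 3 lower (0.00534%), and 22 annotations (0.203%), 17 higher (0.157%) and 5 lower (0.0461%). DESeq2's Wald test called 6 transcripts (0.0107%) and 3 annotations (0.0277%), all higher in exposed fish, and all 3 of these annotations were also among the 22 of the exact test. With ML1 left out, the quasi-likelihood test called 8 transcripts (0.0142%), all higher, and 23 annotations (0.212%), 16 higher (0.148%) and 7 lower (0.0646%), and 9 of the 23 were also among the 22 of the exact test. Leaving out ML2, ML3 or any control fish gave 0 calls.

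The exposed fish did not stand together. Distances between libraries, taken as the root mean square of the 500 largest log2 differences between each pair, were 3.174 to 4.713 among control fish (median 3.525), 3.319 to 4.78 among exposed fish (median 4.111) and 2.94 to 5.098 between the groups (median 3.618). The nearest library to each exposed fish was a control: C5 for ML1, and C1 for ML2 and for ML3. Most of the other libraries were controls, so a control neighbour was likely in any case. ML2 and ML3 were 3.319 apart, while ML1 was at 4.78 from ML2 and at 4.111 from ML3. ML2 lay above every control for 2311 annotations (21.3%) and below for 2371 (21.9%), ML3 for 2005 (18.5%) and 2091 (19.3%), and ML1 for 1379 (12.7%) and 1377 (12.7%). ML2 and ML3, but not ML1, were together above every control for 801 annotations (7.39%) and together below for 869 (8.02%). The corresponding numbers were 151 above and 157 below for ML1 with ML2, and 160 and 209 for ML1 with ML3. The map of library distances shows ML1 among the controls C4 and C5, and ML2 and ML3 on the other side of the map near C1.

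**Figure D1:**
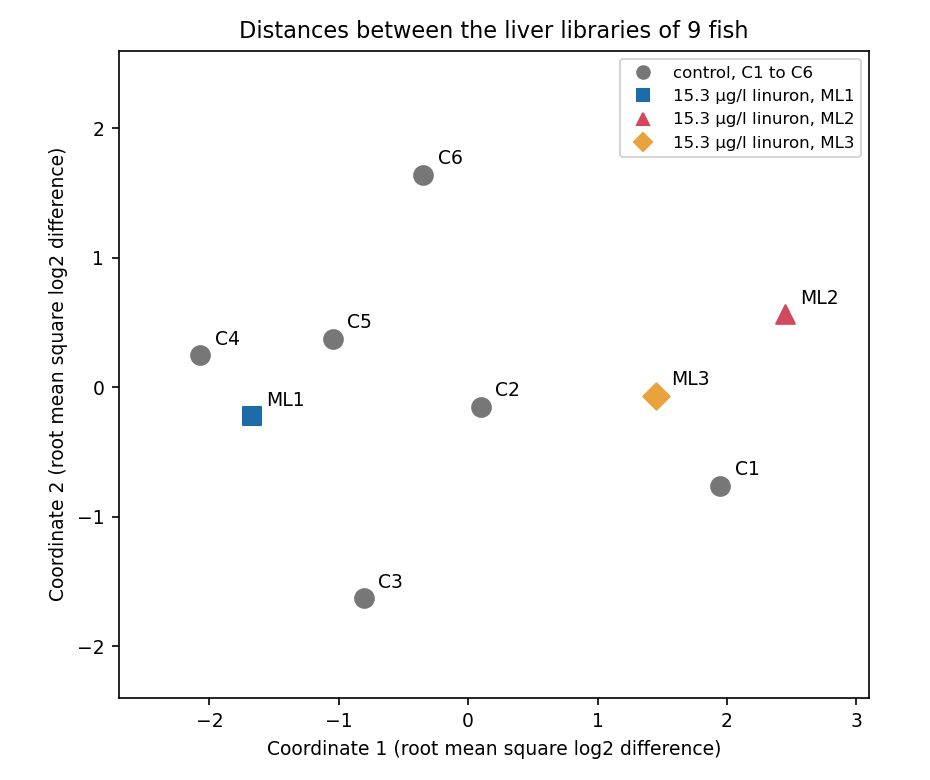
Classical scaling of the distances between the 9 liver libraries, both axes in units of root mean square log2 difference, with control fish as circles and each exposed fish as its own symbol. ML1 lies nearest to C5, at a distance of 2.991, and ML3 nearest to C1, at 2.94.

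The 10 annotations with the lowest p among those whose exposed fish all lay above the controls, and that reached a mean of 5 CPM in a group, were *itga6a*, *nop58*, *dnaja3b*, *hmox1*, *serinc5*, *gnl3l*, *myca*, *tmem69*, *pno1* and *nop2*. None of them passed the quasi-likelihood test, in which each had an adjusted p of 0.780. *nop58*, *nop2*, *pno1* and *gnl3l* encode nucleolar proteins of ribosome assembly, and *myca* encodes a Myc transcription factor, which in other vertebrates activates such genes. *nop58*, a core protein of box C/D small nucleolar particles, was at 6.30 CPM in the lowest, 7.35 in the median and 10.7 in the highest control fish, and at 11.8, 45.8 and 25.1 CPM in ML1, ML2 and ML3. ML1 was just above the highest control, and ML2 and ML3 were well above it. The log2 fold change of *nop58* was 1.79 ± 0.35 (SE), with an adjusted p of 0.0095 in edgeR's exact test, 0.047 in DESeq2 and 0.024 in the quasi-likelihood test without ML1.

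*nop2*, an rRNA methyltransferase, was at 8.49, 12.95 and 16.1 CPM in the lowest, median and highest control fish and at 19.05, 26.5 and 27.8 CPM in ML1, ML2 and ML3 (log2 fold change 0.97 ± 0.26). *pno1*, a factor of small subunit assembly, was at 14.5, 18.9 and 29.6 CPM in the lowest, median and highest control and at 36.3, 46.8 and 30.3 CPM in ML1, ML2 and ML3 (0.92 ± 0.25). *gnl3l*, a nucleolar GTP-binding protein, was at 6.86, 8.48 and 11.6 CPM in the lowest, median and highest control and at 16, 28 and 17 CPM in ML1, ML2 and ML3 (1.15 ± 0.27). For these 3 genes the groups did not overlap, but ML3 was close to the highest control for *pno1*. *myca* was at 0 to 1.94 CPM in control fish (median 1.53) and at 2.07, 17.2 and 7.39 CPM in ML1, ML2 and ML3, so that ML1 was next to the controls. The gap in ML1 rested on an assembled transcript that entered the table with the help of exposed fish, as given below.

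*itga6a*, an integrin subunit that binds laminin, was at 0.225, 1.46 and 2.58 CPM in the lowest, median and highest control fish and at 16.98, 8.95 and 5.06 CPM in ML1, ML2 and ML3. It was the only one of the 10 with its highest level in ML1 and kept a log2 fold change of 2.84 ± 0.53 (adjusted p of 3.7e-04 in edgeR's exact test and 0.0076 in DESeq2). *hmox1*, the haem-degrading enzyme induced by oxidative stress, was at 4.88, 8.43 and 9.49 CPM in the lowest, median and highest control and at 10.6, 224 and 10.7 CPM in ML1, ML2 and ML3. ML2 was far above the other fish, and ML1 and ML3 were just above the highest control (log2 fold change 3.42 ± 0.76). *dnaja3b*, a mitochondrial Hsp40 cochaperone, was at 2.6 to 5.2 CPM in control fish (median 4.49) and at 7.24, 10.1 and 19.3 CPM in ML1, ML2 and ML3. *serinc5*, a membrane protein named for serine incorporation into lipids, was at 1.18 to 4.36 CPM in control fish (median 3.17) and at 6.2, 12.9 and 10.1 CPM in ML1, ML2 and ML3. The transmembrane protein gene *tmem69* was at 1.63 to 3.88 CPM in control fish (median 2.61) and at 6.94, 8.21 and 4.86 CPM in ML1, ML2 and ML3. For *dnaja3b*, *serinc5* and *tmem69* no exposed fish reached into the control range.

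**Figure D2:**
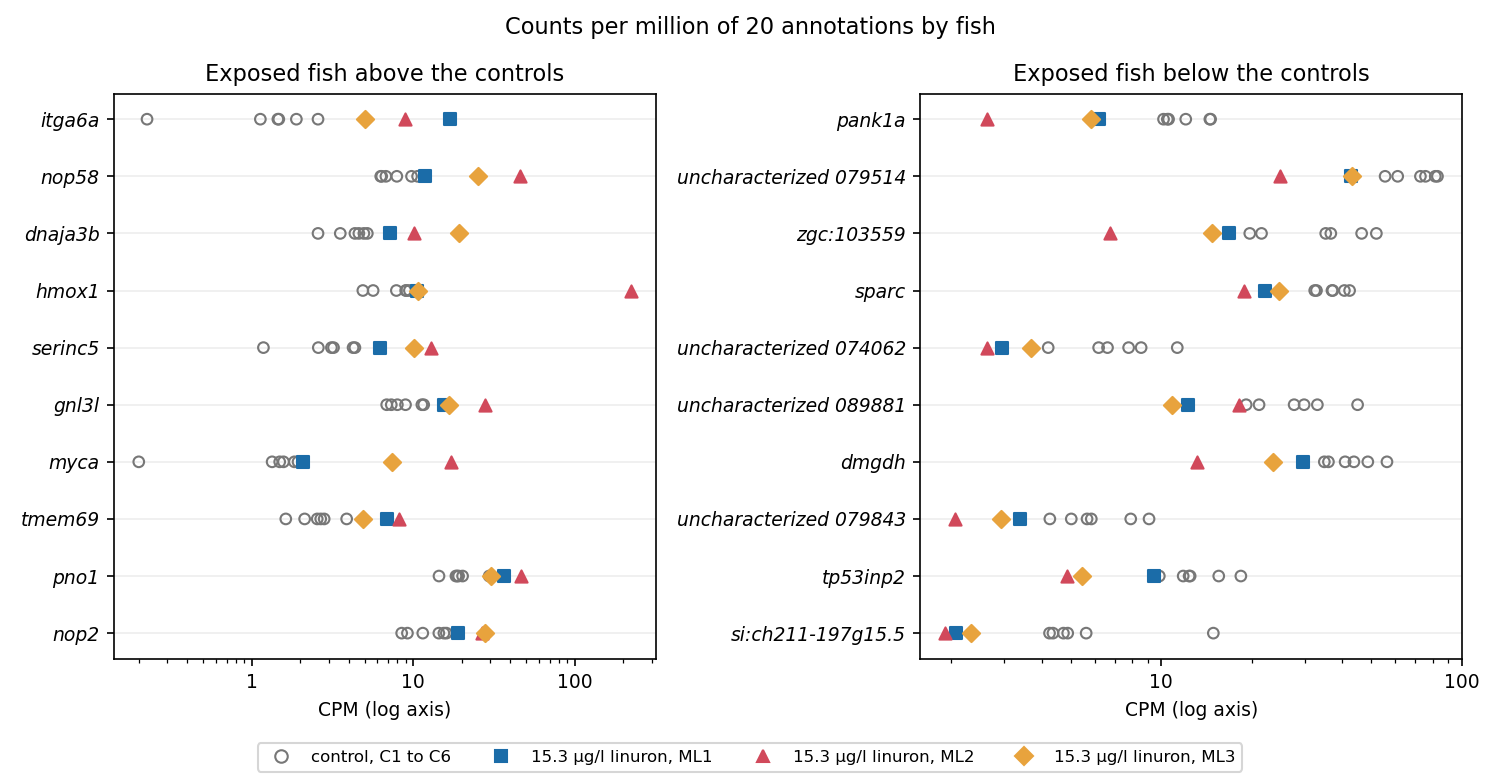
CPM on a log axis for each of the 9 fish, for the 10 annotations with the lowest p whose exposed fish all lay above the controls (left) and all lay below them (right). Open circles are control fish, filled symbols are ML1, ML2 and ML3, and the control fish with 0 CPM for *myca* is drawn at the left edge. *hmox1* reached 224 CPM in ML2 only, while *sparc* was between 18.9 and 24.7 CPM in all exposed fish.

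The 10 annotations picked in the same way from those below the controls were *pank1a*, *sparc*, *dmgdh*, *tp53inp2*, *zgc:103559*, *si:ch211-197g15.5* and 4 annotations described as uncharacterized proteins. Their adjusted p was also 0.780 each in the quasi-likelihood test, and none was called by edgeR's exact test, by DESeq2 or without ML1. *sparc*, a matrix glycoprotein of stromal cells, was at 32.4, 37.1 and 42.3 CPM in the lowest, median and highest control fish and at 22.1, 18.9 and 24.7 CPM in ML1, ML2 and ML3. Its log2 fold change was -0.76 ± 0.20, and no exposed fish reached the lowest control. *pank1a*, a pantothenate kinase that starts coenzyme A synthesis, was at 10.2, 11.3 and 14.6 CPM in the lowest, median and highest control and at 6.2, 2.6 and 5.8 CPM in ML1, ML2 and ML3 (-1.30 ± 0.31). *dmgdh*, a mitochondrial enzyme of choline breakdown, was at 34.9, 42.3 and 56.4 CPM in the lowest, median and highest control and at 29.7, 13.2 and 23.5 CPM in ML1, ML2 and ML3 (-0.97 ± 0.28). *tp53inp2*, which takes part in autophagy in mammals, was at 9.85 CPM or more in control fish and at 9.45, 4.84 and 5.45 CPM in ML1, ML2 and ML3, so that ML1 was next to the lowest control. The remaining 6 annotations had log2 fold changes of -0.96 to -1.59. The 4 uncharacterized annotations, *tp53inp2* and *si:ch211-197g15.5* shared assembly components with other annotations, so reads of similar genes may be mixed in them.

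The annotations called by the other tests were named after their values were seen. In 11 of the 22 of the exact test ML2 and ML3, but not ML1, lay above every control, as in 801 (7.39%) of all annotations. The 22 were picked by a test of these same fish, which can raise that number, so it is not read as a result. The lowest p of all annotations in the quasi-likelihood test, 1.4e-04, belonged to a stickleback gene without a description, ENSGACG00000002729. It was at 9.06, 17.2 and 27.3 CPM in the lowest, median and highest control fish and at 24.7, 547 and 123.1 CPM in ML1, ML2 and ML3 (log2 fold change 3.73 ± 0.68, adjusted p 1.4e-05 in edgeR's exact test). ML2 and ML3 were far above the controls and ML1 was inside their range. *odc1*, the rate-limiting enzyme of polyamine synthesis, was at 6.51, 12.8 and 105 CPM in the lowest, median and highest control and at 8.56, 535 and 536 CPM in ML1, ML2 and ML3. The highest control was C1, and ML1 was within the control range (3.66 ± 1.03, adjusted p 0.023 in the exact test and 0.062 without ML1 in the quasi-likelihood test).

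*tlr21*, a Toll-like receptor of fish and birds that recognises bacterial DNA, was at 0.473 to 6.19 CPM in control fish (median 2.56), at 0.295 CPM in ML1 and at 46.8 and 29.0 CPM in ML2 and ML3. *gpx4b*, a glutathione peroxidase that reduces lipid peroxides, was at 9.11 to 20.03 CPM in control fish (median 11.1) and at 11.8, 66.9 and 43.2 CPM in ML1, ML2 and ML3. *ppan*, a further nucleolar assembly factor, was at 5.91 to 12.2 CPM in control fish (median 9.21) and at 9.75, 53.4 and 26.5 CPM in ML1, ML2 and ML3. In all 3 genes ML1 was inside or below the control range and ML2 was highest. The other annotations called higher by the exact test in which ML2 and ML3 lay above every control and ML1 did not were *ankrd16*, *zgc:91890*, *itpka*, *ap1g2*, *ankrd28* and an uncharacterized protein, with log2 fold changes of 1.99 to 3.52.

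The 5 annotations that the exact test called lower were *nqo1*, *ksr1*, *hspg2*, *ect2* and *mylk4*, all at low counts. *nqo1*, a quinone reductase often induced together with *cyp1a* in mammals, had 83 counts over the 6 control fish and 0 in the 3 exposed fish, and the control fish ranged from 0 to 4.02 CPM. Against a floor of 3 counts over the exposed group it was at least 11.4-fold lower in exposed fish. *ksr1*, a scaffold of the Ras pathway, had 42 counts in control and 0 in exposed fish, at least 6.59-fold lower. *hspg2*, the basement membrane proteoglycan perlecan, had 48 and 0 counts, at least 7.51-fold lower. Every control fish was above 0 for *ksr1* and *hspg2*. The table held only transcripts at 1.029 CPM or above in the third highest of the 9 fish, so these 3 genes entered it through their control fish alone and had to be lower in exposed fish. *ect2*, a regulator of cell division, was at 1.13 to 7.73 CPM in control fish and at 1.03, 0.293 and 0 CPM in ML1, ML2 and ML3. *mylk4*, a myosin light chain kinase, was at 1.63 to 5.66 CPM in control fish and at 0, 1.17 and 0 CPM in ML1, ML2 and ML3. For *ect2* and *mylk4*, the contig that the exact test also called entered the table through control fish alone.

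Among single transcripts, 6 contigs of 1 assembly component, 2 of them annotated with the undescribed stickleback gene, made up 6 of the 16 calls of the exact test and all 6 calls of DESeq2. The contig with the lowest p was at 5.78 to 14.7 CPM in control fish and at 14.1, 315 and 64.2 CPM in ML1, ML2 and ML3. The other calls included contigs of *hmox1*, *myca*, *itga6a*, *ankrd16*, *ect2* and *mylk4*. A contig without annotation that was called higher reached at most 0.546 CPM in control fish and 2.03 CPM or more in exposed fish. Another was at 0.956 CPM or below in every control fish. Both entered the table, which needed 1.029 CPM in the third highest fish, through exposed fish alone and had to be higher there. For the *myca* contig C1 was the only control fish above 1.029 CPM, so its entry also needed exposed fish. The 3 contigs that the exact test called lower, of *ect2*, of *mylk4* and of no annotation, were at 0.306 CPM or below in every exposed fish. They entered the table through control fish alone and had to be lower in exposed fish. The *itga6a* contig was at 16.7 and 9.18 CPM in ML1 and ML2 but at 0.377 CPM in ML3, inside the control range, so that the non-overlap of the summed annotation rested on its other contig in ML3.

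Of the 9 measured genes of the aryl hydrocarbon receptor pathway, 1 was higher and 2 were lower at an unadjusted p under 0.05, a share of 33.3% against 6.07% of all annotations, and their median log2 fold change was -0.41. This share rests on few genes and counts *ahr1a*, whose direction was set by how transcripts entered the table. It can therefore not be read as a change of the pathway. *cyp1a* was at 3.39, 10.7 and 19.7 CPM in the lowest, median and highest control fish and at 153, 0.733 and 33.1 CPM in ML1, ML2 and ML3. ML1 and ML3 were above every control and ML2 was below every control, and the log2 fold change over the 3 was 2.50 ± 0.89 (unadjusted p of 0.016 in the quasi-likelihood test). The receptor gene *ahr2* was at 14.4, 25.05 and 29.8 CPM in the lowest, median and highest control and at 29.7, 10.9 and 12.8 CPM in ML1, ML2 and ML3, with ML2 and ML3 below every control (-0.41 ± 0.35). *ahr1a*, another receptor of the family, was at 0.991 to 2.44 CPM in control fish and at 0.591, 0 and 0 CPM in ML1, ML2 and ML3. With no exposed fish at 1.029 CPM, *ahr1a* entered the table through control fish alone and had to be lower in exposed fish. The order of the exposed fish was the same for *cyp1a* and *ahr2* in that ML1 was highest and ML2 lowest.

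Of 36 other cytochrome P450 genes, 0 were higher and 3 were lower at an unadjusted p under 0.05 (*cyp2r1*, *cyp2x9* and *cyp2j20*), a share of 8.33% against 6.07% of all annotations, and the median log2 fold change was -0.21. *cyp2x9* was at 553, 608 and 798 CPM in the lowest, median and highest control fish and at 395, 346.5 and 554 CPM in ML1, ML2 and ML3 (-0.59 ± 0.25). ML3 was just inside the control range and the other exposed fish were below it. Of 36 conjugation and glutathione enzymes, 7 had a positive log2 fold change, 0 were higher and 3 were lower at an unadjusted p under 0.05 (8.33%), and the median was -0.33. *gstp1*, a pi-class glutathione transferase, was at 455, 622 and 902 CPM in the lowest, median and highest control and at 479, 322 and 345 CPM in ML1, ML2 and ML3 (-0.77 ± 0.27). *mgst3*, a microsomal glutathione transferase, was at 50.4 to 99.8 CPM in control fish (median 80.1) and at 56.7, 26.5 and 38.3 CPM in ML1, ML2 and ML3 (-0.89 ± 0.30). In *gstp1* and *mgst3* ML2 and ML3 were below every control and ML1 was near the lowest. The median over the conjugation enzymes was 0.01 in ML1, -1.01 in ML2 and -0.32 in ML3 as a log2 ratio to the control mean.

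Of 30 cholesterol synthesis genes none reached an unadjusted p of 0.05, 9 had a positive log2 fold change and the median was -0.10. The fish differed in direction, with a median log2 ratio to the control mean of 0.57 in ML1, -0.50 in ML2 and -0.98 in ML3. *dhcr7*, the last enzyme of the pathway, was at 80.8, 211 and 230 CPM in the lowest, median and highest control fish and at 387, 58.5 and 79.4 CPM in ML1, ML2 and ML3. *cyp51*, the lanosterol demethylase, was at 126, 236 and 313 CPM in the lowest, median and highest control and at 332, 97.2 and 86.4 CPM in ML1, ML2 and ML3. *sqle*, squalene epoxidase, was at 54.1, 137 and 173 CPM in the lowest, median and highest control and at 201, 44.9 and 28.0 CPM in ML1, ML2 and ML3. For these 3 genes ML1 was above every control and ML2 and ML3 were below every control, which left log2 fold changes of -0.13 ± 0.53, -0.36 ± 0.43 and -0.41 ± 0.57. *hmgcra*, the rate-limiting reductase, was at 58.1 to 168 CPM in control fish and at 171, 107 and 80.9 CPM in ML1, ML2 and ML3 (0.14 ± 0.37). C1, the control fish nearest to ML2 and ML3 in the library distances, had the lowest *dhcr7* and *cyp51* of the controls.

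The 16 genes of bile acid synthesis and sterol export had a median log2 fold change of -0.26, and the 37 steroid dehydrogenases and reductases one of -0.27, with none at an unadjusted p under 0.05 in either list. Without ML1 these medians were -0.52 and -0.54, and without ML2 they were 0.04 and -0.15. Of the 10 sex steroid receptors and oestrogen-responsive genes measured, none reached an unadjusted p of 0.05 and the median was 0.13. *ar*, the androgen receptor that linuron binds, was at 30.2, 40.6 and 65.8 CPM in the lowest, median and highest control fish and at 43.6, 36.2 and 44.9 CPM in ML1, ML2 and ML3, all inside the control range (-0.10 ± 0.27). *esr1*, the oestrogen receptor that drives yolk protein synthesis in female liver, was at 10.3, 18.4 and 32.0 CPM in the lowest, median and highest control and at 9.01, 6.89 and 31.1 CPM in ML1, ML2 and ML3 (-0.27 ± 0.49). ML1 and ML2 were below the lowest control and ML3 was near the highest. *shbg*, the plasma carrier of sex steroids, was at 593 to 1220 CPM in control fish (median 652) and at 666, 978 and 1488 CPM in ML1, ML2 and ML3 (0.51 ± 0.31), with ML3 above every control. Vitellogenin and nothepsin were not analysed here.

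As a sum, acute phase genes separated ML1 from ML2 and ML3, and they also varied widely among control fish. The summed level of the 28 acute phase and inflammation genes was 7097 CPM in the lowest control (C4), 35469 in the median and 87439 in the highest (C1), and it was 8735, 119318 and 100360 CPM in ML1, ML2 and ML3. In this sum ML2 and ML3 were above every control and ML1 was near the lowest, but most of the sum in ML2 and ML3 was haptoglobin. *hp*, haptoglobin, the plasma scavenger of free haemoglobin, was at 2637, 23547 and 61853 CPM in the lowest, median and highest control and at 2305, 94887 and 79910 CPM in ML1, ML2 and ML3 (1.15 ± 1.02). Hemopexin was at 2060 to 8845 CPM in control fish and at 2472, 11980 and 5875 CPM in ML1, ML2 and ML3, above the controls in ML2 only. *lect2l*, a leukocyte chemotaxin, was at 94.6 to 12429 CPM in control fish. It was at 234, 8804 and 4951 CPM in ML1, ML2 and ML3, all inside that range. Within the list 3 genes were higher and 1 lower at an unadjusted p under 0.05, a share of 14.3% against 6.07% of all annotations, and none lay outside the control range in all exposed fish.

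The 28 complement genes had a median log2 fold change of -0.01, with medians of -0.78 in ML1, 0.10 in ML2 and 0.25 in ML3 as log2 ratios to the control mean. *c6*, a component of the membrane attack complex, was at 41.8, 72.3 and 288 CPM in the lowest, median and highest control fish and at 55.2, 1354 and 184 CPM in ML1, ML2 and ML3 (2.09 ± 0.83). ML2 alone was above the controls. Of 20 iron and haem genes, *hmox1* was the only one at an unadjusted p under 0.05 (5.0%, against 6.07% of all annotations), and the median was -0.31.

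**Figure D3:**
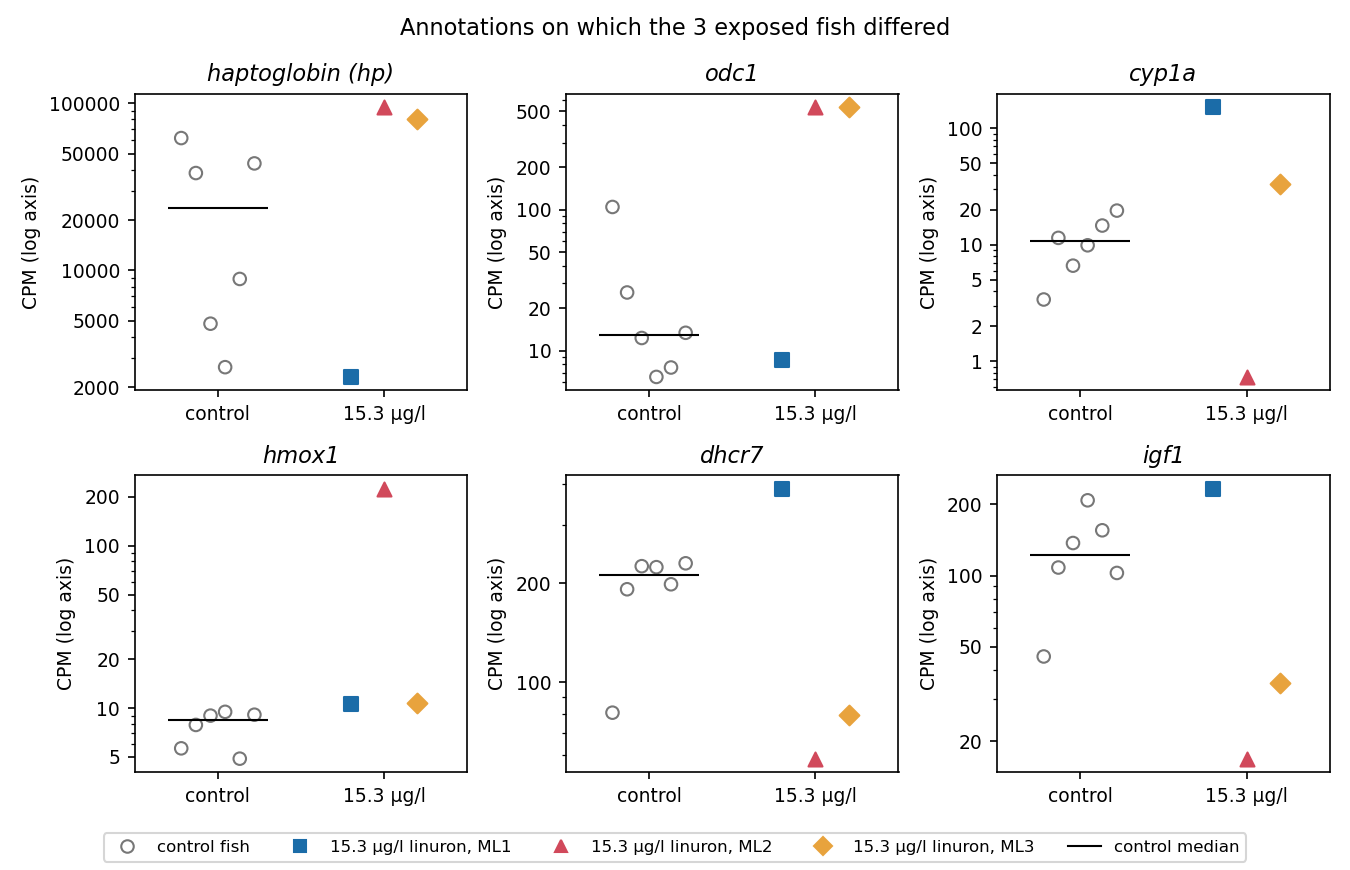
CPM on a log axis of 6 annotations, chosen after their values were seen, in control fish (open circles, with the control median as a line) and in ML1, ML2 and ML3. ML2 and ML3 had 535 and 536 CPM of *odc1* and ML1 8.56, while *cyp1a* was at 153 CPM in ML1 and at 0.733 in ML2.

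Among 73 heat shock proteins and chaperones, 9 were higher and 0 lower at an unadjusted p under 0.05, a share of 12.3% against 6.07% of all annotations. All exposed fish lay above all controls for 7 of them and below for 0, where 1.39% of all annotations did so in each direction. Of the 73, 52 had a positive log2 fold change, against 48.7% of all annotations, and the median was 0.29 against -0.01. None passed the quasi-likelihood test after adjustment. The members at that p were 5 subunits of the cytosolic chaperonin CCT, which folds actin and tubulin, with *dnaja3b*, *hspa4a*, *dnajb2* and *hspd1*. *cct2* was at 16.8, 27.9 and 29.6 CPM in the lowest, median and highest control fish and at 34.6, 50.02 and 58.7 CPM in ML1, ML2 and ML3 (0.89 ± 0.24). *cct7* was at 20.1, 25.8 and 28.6 CPM in the lowest, median and highest control and at 32.9, 42.7 and 49.01 CPM in ML1, ML2 and ML3 (0.74 ± 0.21). *cct8* was at 12.99 to 27.5 CPM in control fish and at 31.6, 27.7 and 37.1 CPM in ML1, ML2 and ML3 (0.76 ± 0.26). In these and in *cct6a* (0.60 ± 0.22) and *cct5* (0.55 ± 0.25) no exposed fish overlapped the controls, although the gap was narrow for *cct8* in ML2. *hspa8*, the constitutive Hsp70, did not share this pattern and was at 1799 to 5540 CPM in control fish and at 6631, 927 and 3714 CPM in ML1, ML2 and ML3, on both sides of the control range.

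Of 36 oxidative stress defence genes, 4 were higher and 1 was lower at an unadjusted p under 0.05, a share of 13.9% against 6.07% of all annotations, with a median log2 fold change of 0.22. The higher ones included *hmox1*, *gpx4b* and *keap1a*, and the lower one was *prdx4*. *prdx4*, a peroxiredoxin of the secretory pathway, was at 61.7, 68.3 and 82.6 CPM in the lowest, median and highest control and at 49.9, 37.0 and 44.2 CPM in ML1, ML2 and ML3 (-0.67 ± 0.21). All exposed fish were below the controls for *prdx4*. Of 38 genes of the unfolded protein response, 31 had a positive log2 fold change, against 48.7% of all annotations, and none an unadjusted p under 0.05. The medians were -0.28 in ML1, 0.60 in ML2 and -0.22 in ML3. Their summed level was 2402 to 5018 CPM in control fish and 2156, 6721 and 2654 CPM in ML1, ML2 and ML3. Only ML2 was above the controls in this sum, and ML1 was below every control.

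The lists of protein synthesis and degradation moved little. The 83 cytosolic ribosomal proteins had a median log2 fold change of 0.09 and the 74 mitochondrial ribosomal proteins one of 0.11. At an unadjusted p under 0.05 there were 0 and 3 members (0.0% and 4.05%, against 6.07% of all annotations). The 47 proteasome genes had a median of 0.07 with 2 members higher and 2 lower at that p (8.51%), and the 81 genes of oxidative phosphorylation a median of 0.03 with 3 higher and 1 lower (4.94%). *cycsb*, cytochrome c, was at 25.5, 55.1 and 131 CPM in the lowest, median and highest control fish and at 33.1, 248 and 237 CPM in ML1, ML2 and ML3 (1.5 ± 0.58), again with ML1 inside the controls.

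Metabolic lists lay near or below 0. The 38 genes of glycolysis, gluconeogenesis and glycogen had a median log2 fold change of -0.28, the 47 genes of fatty acid oxidation one of -0.23, the 27 genes of fatty acid and triglyceride synthesis one of -0.05, the 60 genes of amino acid catabolism one of -0.11 and the 11 apolipoproteins one of -0.07. For glycolysis the median was -0.14 without C1 and -0.17 without ML2. *gys2*, the liver glycogen synthase, was at 30.8, 40.6 and 47.4 CPM in the lowest, median and highest control fish and at 27.6, 21.9 and 25.9 CPM in ML1, ML2 and ML3, below every control (-0.64 ± 0.22). *gcshb*, a protein of the glycine cleavage system, was at 90.1, 113 and 213 CPM in the lowest, median and highest control and at 87.1, 45.8 and 41.8 CPM in ML1, ML2 and ML3 (-1.11 ± 0.34). ML1 was only just below the lowest control for *gcshb*. *pgk1*, a glycolytic kinase, was at 99.2, 120 and 207 CPM in the lowest, median and highest control and at 116, 342 and 569 CPM in ML1, ML2 and ML3 (1.40 ± 0.40).

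The 24 genes of the insulin-like growth factor axis had a median log2 fold change of 0.00 with none at an unadjusted p under 0.05. *igf1*, the main growth factor made by the liver, was at 45.5, 122.7 and 208 CPM in the lowest, median and highest control fish and at 233, 16.9 and 35.2 CPM in ML1, ML2 and ML3, on both sides of the control range (-0.41 ± 0.69). *igfbp1a*, a binding protein raised by fasting and stress in fish, was at 40.5 to 1666 CPM in control fish (median 282) and at 69.5, 194 and 359 CPM in ML1, ML2 and ML3, all inside that range. *tgm2l*, a transglutaminase, was at 0.283 to 38.0 CPM in control fish (median 25.04) and at 12.3, 10.1 and 5.06 CPM in ML1, ML2 and ML3. The 31 circadian clock genes had a median of -0.19 with 2 lower at an unadjusted p under 0.05 (*per1b* and *clock*), the 36 apoptosis genes a median of 0.18 with 2 higher and 1 lower, the 41 genes of DNA replication and the cell cycle a median of -0.17 with 2 lower, the 29 coagulation factors and serpins a median of -0.08 with none, and the 26 MHC and interferon related genes a median of -0.40 with 2 lower. In the order given, the shares at that p were 6.45%, 8.33%, 4.88%, 0.0% and 7.69%, against 6.07% of all annotations. No list had a member past the adjusted threshold.

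**Figure D4:**
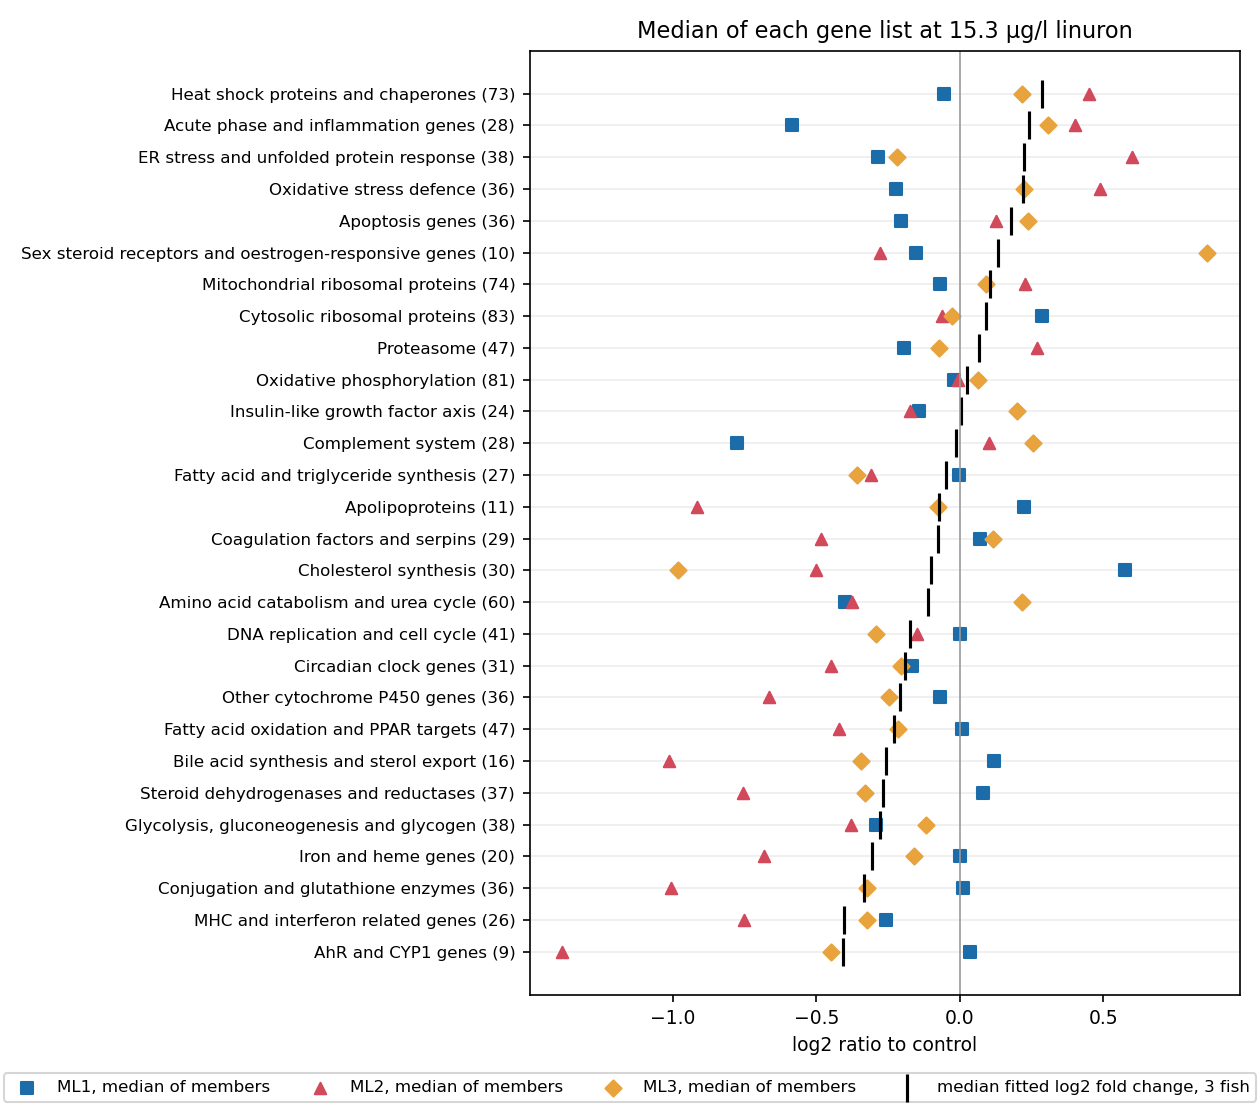
Median log2 ratio to control over the members of 28 gene lists (number of members in brackets), for each exposed fish as a symbol and for the fit over the 3 fish as a black bar. For cholesterol synthesis the medians were 0.57 in ML1, -0.50 in ML2 and -0.98 in ML3, and for heat shock proteins and chaperones -0.05, 0.45 and 0.22.

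Markers of the other cell types that a liver sample can hold also differed between the fish. The 13 lymphocyte markers all had negative log2 fold changes (median -0.99), where 48.7% of all annotations were positive. At an unadjusted p under 0.05 there were 3 of them, a share of 23.1% against 6.07% of all annotations. Most were at low levels, and the third by level, the immunoglobulin heavy chain zeta, had a control median of 6.35 CPM. Entry to the table needed 1.029 CPM in the third highest of 9 fish, 6 of them controls, which can favour low markers that are higher in controls. How far this set the direction was not tested. The summed level of the 13 lymphocyte markers was 95.1 to 150 CPM in control fish and 70.3, 51.3 and 76.6 CPM in ML1, ML2 and ML3. The groups did not overlap in this sum, and *ighm*, the immunoglobulin heavy chain mu, was at 22.1 to 86.5 CPM in control fish and at 14.3, 25.5 and 38.1 CPM in ML1, ML2 and ML3. The 7 stellate cell and fibroblast markers summed to 46.6 to 90.9 CPM in control fish and to 66.7, 29.2 and 35.6 CPM in ML1, ML2 and ML3, whereas *sparc* was below the controls in ML1 too. The 4 erythrocyte markers summed to 158 to 656 CPM in control fish and to 343, 68.1 and 242 CPM in ML1, ML2 and ML3, so the level was lowest in ML2, the fish with the highest *hmox1*. The 11 macrophage and granulocyte markers summed to 366 to 670 CPM in control fish and to 324, 566 and 514 CPM in ML1, ML2 and ML3, and the 5 exocrine pancreas markers to 22.5 to 85.6 CPM and to 36.9, 27.3 and 83.4 CPM. The part of these cells in the values above was not tested. The 8 endothelium markers, 7 bile duct markers and 2 testis markers summed to 48.0 to 66.6, 416 to 575 and 3.23 to 7.57 CPM in control fish, with ML1, ML2 and ML3 at 41.9, 46.8 and 57.4 CPM for endothelium, 567, 398 and 623 CPM for bile duct and 6.79, 9.39 and 7.20 CPM for testis. The 1 skeletal muscle marker was at 0.485 to 3.40 CPM in control fish and at 2.36, 0 and 0 CPM in ML1, ML2 and ML3.

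The fish at 15.3 µg/l were then set against the fish at the neighbouring concentrations, in 1 quasi-likelihood model of the 4 groups over 10476 annotations built from transcripts listed for all of them. Levels in this model differ from those above because fewer transcripts enter. For *itga6a* ML3 was at 0.414 CPM in this model and inside the control range, where it was at 5.06 CPM above. For *myca* ML1 and ML2 were at 0.932 and 3.90 CPM in place of 2.07 and 17.2 CPM, and ML1 was inside the control range. The non-overlap of *itga6a* and *myca* given above thus rested on contigs that were not listed at every concentration. As the control counts were identical at each concentration, those contigs entered at 15.3 µg/l with the help of its exposed fish. This entry favours higher levels in exposed fish. *pno1* was at 33.3 to 119 CPM at 1.7 µg/l and at 54.4 to 109 CPM at 225.9 µg/l, where the highest control was at 30.9 CPM. All fish at 1.7 µg/l were also above every control for *nop58*, *gnl3l*, *myca* and *tmem69*. This was not so for *itga6a*, *dnaja3b*, *hmox1*, *serinc5* and *nop2*. Of the 10 annotations below the controls, *pank1a*, *dmgdh* and an uncharacterized protein were also below every control in all fish at 1.7 µg/l. The gap was narrow, as for *pank1a* with 10.60 CPM in the highest of these fish and 10.65 CPM in the lowest control. The others of the 10 overlapped the controls at 1.7 µg/l. Against 1.7 µg/l, 0 annotations (0.0%) passed, with 1439 (13.7%) at an unadjusted p under 0.05, 97 calls in edgeR's exact test and 162 in DESeq2, and 749 calls in the quasi-likelihood test when ML1 was left out. Against 225.9 µg/l, 14 annotations (0.134%) passed, 4 higher (0.0382%) and 10 lower (0.0955%) at 15.3 µg/l. This count was 1 to 5 when any fish of either group other than ML1 was left out and 820 when ML1 was left out.

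The annotation with the lowest p against 225.9 µg/l was *clu*, clusterin, a secreted chaperone. It was at 11.8, 9.53 and 12.6 CPM in ML1, ML2 and ML3 and at 206, 139 and 192 CPM in the 3 fish at 225.9 µg/l, with controls between 12.3 and 20.6 CPM (log2 fold change -3.98 ± 0.29, edgeR adjusted p 2.7e-06). ML3 was inside the control range, ML1 and ML2 were below every control, and each was far from the fish at 225.9 µg/l. *ethe1*, a mitochondrial sulfur dioxygenase, was at 5.44, 1.56 and 1.45 CPM in ML1, ML2 and ML3 and at 35.9, 52.3 and 22.5 CPM at 225.9 µg/l, with controls between 2.87 and 10.1 CPM (-3.68 ± 0.54, adjusted p 0.014). *cyp2j20*, a member of a P450 family that oxidises fatty acids, was at 92.5, 48.6 and 51.9 CPM in ML1, ML2 and ML3 and at 443, 315 and 257 CPM at 225.9 µg/l, with controls between 70.5 and 174 CPM (-2.39 ± 0.38, adjusted p 0.023). For *ethe1* and *cyp2j20* the highest group was 225.9 µg/l, and ML2 and ML3 were below every control.

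The glutathione transferases *mgst3*, *gsto1* and *mgst1* were lower at 15.3 than at 225.9 µg/l by log2 fold changes of -1.81 ± 0.31, -2.0 ± 0.38 and -1.92 ± 0.36. *gsto1* was at 80.8, 102 and 83.8 CPM in ML1, ML2 and ML3 and at 376, 419 and 276 CPM at 225.9 µg/l, with controls between 64.4 and 164 CPM. The remaining lower annotations were *zgc:162356* (-1.81 ± 0.26), *ptplad1* (-1.73 ± 0.28), *spata5l1* (-1.33 ± 0.22) and *sb:cb252* (-2.88 ± 0.50). The 4 higher annotations were *lss*, *cox6b1*, *gpx4a* and *si:dkey-200c24.1*. With only the 2 linuron groups fitted, or without ML2 or any 1 fish at 225.9 µg/l, 0 annotations were called higher. Without ML3 there was 1. Without ML1 there were 393, and edgeR's exact test and DESeq2 called 104 and 181 higher. *lss*, the cyclase that makes lanosterol in cholesterol synthesis, was at 145, 111 and 63.5 CPM in ML1, ML2 and ML3 and at 18.99, 28.3 and 16.9 CPM at 225.9 µg/l (2.32 ± 0.39, adjusted p 0.026). At 1.7 µg/l *lss* was at 33.7, 50.4 and 49.2 CPM, below all fish at 15.3 µg/l, and in controls it was at 69.8 to 193 CPM. The levels of *lss* did not follow the order of the concentrations. *gpx4a*, another lipid peroxide reductase, was at 29.2, 40.6 and 37.7 CPM in ML1, ML2 and ML3 and at 12.4, 15.8 and 14.1 CPM at 225.9 µg/l (1.35 ± 0.25), with controls between 21.2 and 31.6 CPM. *cox6b1*, a subunit of cytochrome c oxidase, was at 87.7, 76.5 and 96.4 against 38.2, 27.9 and 36.1 CPM (1.35 ± 0.23). Its controls were between 69.1 and 120 CPM, so ML1, ML2 and ML3 were inside the control range.

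*cyp1a* was at 161, 0.781 and 35.2 CPM in ML1, ML2 and ML3 in this model, at 109, 38.2 and 12.3 CPM in the fish at 1.7 µg/l and at 4579, 3580 and 6100 CPM in those at 225.9 µg/l. Every fish at 225.9 µg/l was more than an order of magnitude above the highest fish at 15.3 µg/l, but the difference did not pass the test, with an edgeR adjusted p of 0.070 (log2 fold change -6.18 ± 1.25). The fish at 1.7 and 15.3 µg/l overlapped.

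**Figure D5:**
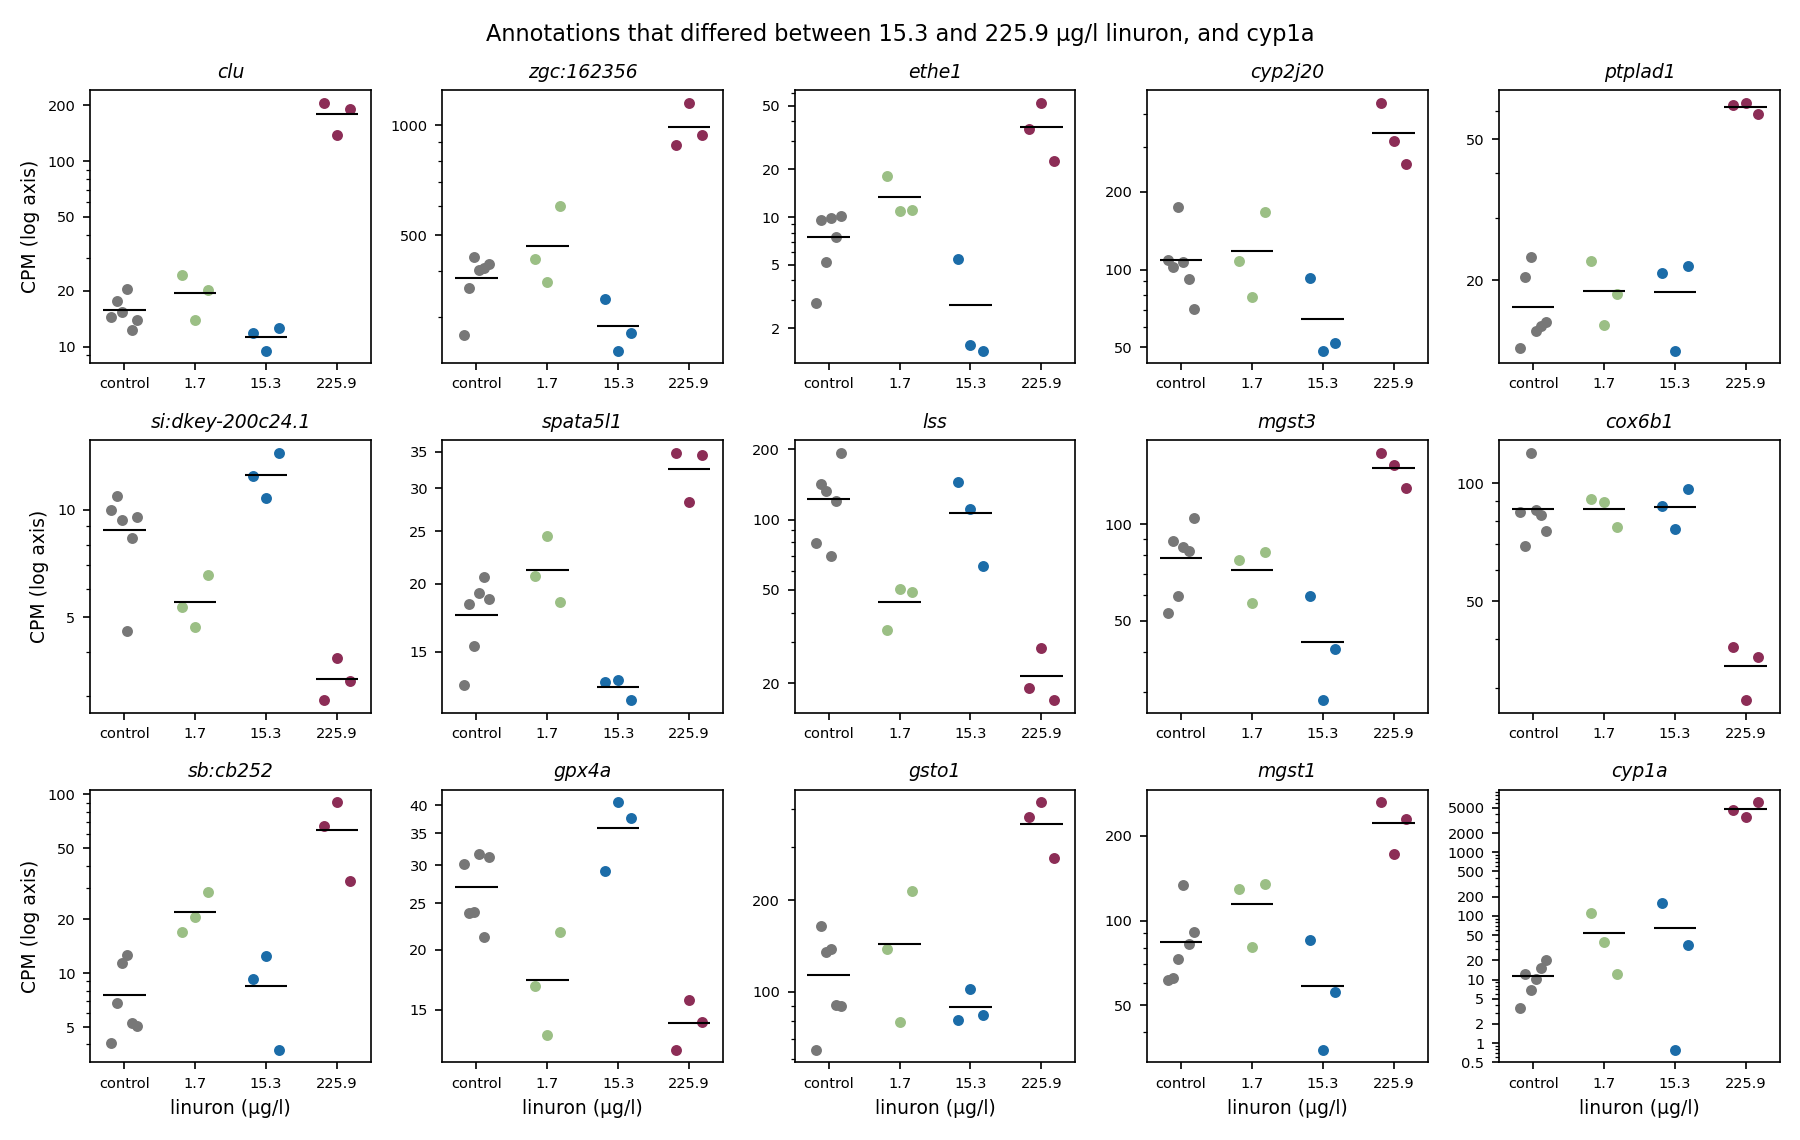
CPM on a log axis in control fish and in the 3 linuron groups (concentrations in µg/l on the horizontal axis), for the 14 annotations that differed at the higher concentration from 15.3 µg/l and for *cyp1a*, with the group mean as a line. *clu* was at 9.53 to 12.6 CPM at 15.3 µg/l and at 139 to 206 CPM at 225.9 µg/l.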

How the data were processed

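Liver RNA of mature male trout was sequenced as TruSeq libraries on an Illumina sequencer in paired reads. According to the study's methods, reads were mapped with Bowtie2 2.1.0 to a de novo Trinity assembly, raw counts per transcript were taken with SAMtools 0.1.18, and transcripts were annotated by Blastx against Ensembl peptides. The counts deposited by the authors are whole reads per transcript and fish, not normalized, with 1 table per linuron concentration in which the control counts were identical. Further columns hold the authors' own fold changes, mean levels, p-values and calls, and were not used. The third highest of the 9 fish was at 1.029 CPM or above for each transcript of the table, so low transcripts had already been left out.

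Counts were tested with edgeR 4.0.16 (R 4.3.3; TMM, at least 1 count in at least 3 fish, which removed 0 transcripts; quasi-likelihood test, 2-sided, Benjamini-Hochberg adjustment over all features, threshold 0.05), per transcript and summed per Ensembl ID. Transcripts without an annotation, 23636 of 56199, stayed in the library totals. As alternatives the exact test of edgeR, DESeq2 1.42.0, scaling to library totals or size factors, stricter filters and fits without each fish were run. The scripts were tested on simulated data, in which the exact test and DESeq2 recovered more of the changed features than the quasi-likelihood test but also made more false calls. Log2 ratios of single fish and library distances used a pseudocount of 0.5 CPM.

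Gene symbols were assigned from the descriptions, since the tables give Ensembl IDs and descriptions. The 28 gene lists and 10 marker lists were matched to 9698 distinct descriptions, and contigs of paralogs may share a name. The sums by symbol planned as an alternative were made by description. The comparison, members and lists were chosen with earlier results of these data known. Genes were named by rule: annotations past the threshold, otherwise the 10 in each direction with the lowest p whose groups did not overlap and whose mean reached 5 CPM in a group, then members of each list at an unadjusted p under 0.05 or with high levels, and 12 genes fixed for linuron, cholesterol and sex steroids, of which 10 matched an annotation. Others are said to have been named after their values were seen. One gene of the oxidative stress list is not reported here by name.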

Additional observations from a re-analysis of the deposited data

Results flagged for a closer look

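Single control fish stood apart from the other 5 for 9 of the 83 sets of control values examined. The gap rule used would give about 1 in 20 for independent sets of normally distributed values. CPM need not be normal and the sets overlap, since *igfbp1a* is part of the summed insulin-like growth factor axis. The count of 9 can therefore not be read as an excess over that rate. The control C3, the shallowest library, was lowest for *myca* at 0 CPM and for the exocrine pancreas markers at 22.5 CPM, and highest for *si:ch211-197g15.5* at 14.9 CPM, *cyp2j20* at 167 CPM and *cox6b1* at 115 CPM. The control C1 was lowest for *dhcr7* at 80.8 CPM and highest for *igfbp1a* at 1666 CPM and for the summed insulin-like growth factor axis at 2479 CPM. The control C5 was highest for the endothelium markers at 66.6 CPM.

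The 14 annotations that differed between 15.3 and 225.9 µg/l linuron did so by a direct test of the difference. Their log2 fold changes were -3.98 for *clu*, -1.81 for *zgc:162356*, -3.68 for *ethe1*, -2.39 for *cyp2j20*, -1.73 for *ptplad1*, 1.90 for *si:dkey-200c24.1*, -1.33 for *spata5l1*, 2.32 for *lss*, -1.81 for *mgst3*, 1.35 for *cox6b1*, -2.88 for *sb:cb252*, 1.35 for *gpx4a*, -2.0 for *gsto1* and -1.92 for *mgst1*.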

How the results depend on the processing

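The counts of calls changed with the test and with 1 fish. For transcripts against control, 0 calls became 16 with edgeR's exact test and 6 with DESeq2, and 0 to 8 when 1 fish was left out. For annotations against control, 0 became 22 and 3, and 0 to 23 without 1 fish. For annotations against 1.7 µg/l, 0 became 97 and 162, and 0 to 749 without 1 fish. For annotations against 225.9 µg/l, 14 became 196 and 314, 4 with only the 2 linuron groups fitted, and 1 to 820 without 1 fish. The highest value of each range came from leaving out ML1, which leaves 2 exposed fish. The cause of these differences was not tested. Other scalings and filters kept the counts within 1.5 times, and library totals moved the median log2 fold change by -0.071.

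Of 30 named genes, 5 changed sign when 1 fish was left out, with log2 fold changes of -0.21 to 0.36 for *hmgcra*, -1.74 to 0.014 for *sqle*, -1.48 to 0.28 for *dhcr7*, -1.24 to 0.086 for *esr1* and -0.19 to 0.039 for *ar*, none past the test. The medians of the 28 gene lists depended on single fish. They moved by over 1.5 times or changed sign for 23 lists without ML1, 25 without ML2 and 14 without ML3, and for 6 to 16 lists without 1 control fish, most often without C1. With a minimum of 5 CPM the skeletal muscle marker was not tested.

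Replicate numbers did not pair the fish: the deviations of same-numbered control and exposed fish correlated at -0.48, 0.10 and -0.04. With the replicate number as a block, calls were 0 against control and 1 against 225.9 µg/l.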

Other observations

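After the levels of *nop58*, *nop2*, *pno1* and *gnl3l* had been seen, a list of 88 ribosome assembly genes was drawn up from the descriptions (nucleolar proteins, rRNA processing factors and subunits of RNA polymerase I). Since it was chosen on these values, it is described with no test. *nop58*, *nop2*, *pno1* and *gnl3l* had been named because their groups did not overlap. Their place in the list therefore raises its count of genes without overlap and adds to the gap in its summed level. Of the 88, 81 had a positive log2 fold change, the median was 0.63 (0.31 without ML2) against -0.01 for all annotations, and all exposed fish lay above all controls for 12 and below for 0, where 1.39% of all annotations did so in each direction. The median log2 ratio to the control mean was -0.06 in ML1, 1.03 in ML2 and 0.56 in ML3. The summed level was 1132 to 1308 CPM in control fish and 1505, 2194 and 1693 CPM in ML1, ML2 and ML3, so the sums did not overlap. *nop56*, a partner of *nop58*, was at 24.6 to 37.3 CPM in control fish and at 35.4, 103 and 62.2 CPM in ML1, ML2 and ML3. *fbl*, fibrillarin, the rRNA methyltransferase of the same particle, was at 16.7 to 26.2 CPM in control fish and at 25.8, 44.7 and 48.2 CPM in ML1, ML2 and ML3. *ncl*, nucleolin, was at 167 to 197 CPM in control fish and at 225, 231 and 202 CPM in ML1, ML2 and ML3. For *nop56* and *fbl* ML1 was inside the control range, and for *ncl* it was above it.

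The fish ML2 and ML3 resembled the control C1 in how they deviated from the mean of their own group. Across annotations the deviations of C1 correlated with those of ML2 at 0.36, of ML3 at 0.28 and of ML1 at -0.53, and those of C4 with ML1 at 0.40. These correlations are across genes, which are not independent replicates, and the deviations within a group of 3 are tied to each other.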
